A study of Homo sapiens with 10 samples.

Results

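The genes described here were 36 direct targets of the transcription factor p53, taken by symbol from a list of genes that p53 is known to activate. The deposited gene table held 35 of the 36 among its 40664 rows, and all 35 were among the 13990 genes that passed the filter on low counts. SESN2 was not analysed here. By role, 9 of the 36 act in cell cycle arrest and feedback on p53, 12 in cell death, 5 in DNA repair and nucleotide supply, 8 in metabolism, redox balance or signalling outside the cell, and 2 in RNA turnover and the ribosome.

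p53 is held low in unstressed cells because MDM2, the product of one of its own targets, marks it for degradation. Damage to DNA, stress on ribosomes and loss of nutrients free p53 from MDM2, and it then binds paired half-sites in DNA near its target genes and activates them. The targets stop the cell cycle (CDKN1A), repair DNA and supply nucleotides (XPC, DDB2, RRM2B), prepare apoptosis (BAX, BBC3, PMAIP1, FAS) and shut the response off again (MDM2, PPM1D). In epithelial cells in culture the arrest genes are the best known readout of this pathway.

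RNA was sequenced from hTERT RPE-1, an established human cell line derived from retinal pigment epithelium and immortalised with telomerase. Cells grew on a soft substrate of 10 kPa or a stiff one of 120 kPa, and were labelled either Control or siNemp1, the latter named for a small interfering RNA against NEMP1, a protein of the nuclear envelope. The 4 groups were control at 10 kPa (2 libraries), siNemp1 at 10 kPa (2 libraries), control at 120 kPa (3 libraries) and siNemp1 at 120 kPa (3 libraries). No source used here gives the nature of the control, the siRNA sequence, the time of treatment or the substrate material. Nothing in the labels says that replicates were separate cultures, so p-values measure only how far these libraries differ, and that spread may be technical.

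Levels are given as CPM, the estimated counts per 1000000 after scaling of the libraries with TMM, a method that aligns the bulk of genes between libraries. Library totals ran from 17.9 to 23.8 M (M for 1000000). NEMP1 stood at 14.1 and 17.3 CPM in control and 8.22 and 7.63 CPM in siNemp1 cells at 10 kPa, and at 18.3, 14.0 and 14.1 CPM against 7.52, 6.70 and 4.11 CPM at 120 kPa. Its mean log2 change over both stiffnesses was −1.16 ± 0.18 (SE; edgeR adjusted p = 0.044). Replicates at 120 kPa differed far more than those at 10 kPa, with a chi-square per gene of 23.0 to 100.7 between libraries of a group against 2.69 and 6.91. Of 7 markers of retinal pigment epithelium, MITF (81.1 to 154 CPM), BEST1 (57.5 to 91.7 CPM) and OTX2 (18.4 to 29.7 CPM) were expressed and PMEL was low (1.51 to 3.74 CPM), whereas RPE65, TYR and RLBP1, which define the differentiated state, reached at most 0.629 CPM. Of 6 epithelial markers, KRT8 (755 to 1205 CPM), KRT18 (499.6 to 772 CPM) and TJP1 (16.3 to 26.6 CPM) were expressed, and KRT19, EPCAM and CDH1 reached at most 0.421 CPM. Of 4 immune and endothelial markers, PTPRC, PECAM1 and VWF did not exceed 1.8 CPM and CD68, a lysosomal protein, was at 492 to 1166 CPM. Of 6 fibroblast markers, THY1 was at 255 to 832 CPM, PDGFRB at 35.9 to 85.4 CPM, the other 3 tested ones between 4.13 and 22.9 CPM, and LUM at most 0.506 CPM.

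To show what p53 recognises in these genes, the RefSeq promoters (GRCh38.p14, 250 bases before to 50 bases after each start) were searched for the p53 consensus pair of half-sites, 2 runs of 10 bases with a spacer of 0 to 13. The consensus is its own reverse complement, so a single scan covered both strands. The inner C and G of each half-site had to match, so mismatches were allowed only at the other positions. Of the 28 members with a promoter in that set, 5 held a pair with at most 2 mismatches to the 20 consensus positions, against 3.62% of all 27305 genes with a promoter. At 3 mismatches the figures were 11 of 28 members and 15.3% of genes. Promoters of RRM2B, TP53INP1, TNFRSF10B, GADD45A, PHLDA3, FBXO22 and ASCC3 were not used here. The matches are shown because they are the sequences through which p53 could act at the promoter itself, and no binding was measured. Capitals mark the half-sites, and each sequence is written 5′ to 3′ on the strand of its gene.
MDM2: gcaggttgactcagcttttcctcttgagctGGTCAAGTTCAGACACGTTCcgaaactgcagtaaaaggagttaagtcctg
FAS: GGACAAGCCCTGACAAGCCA
AEN: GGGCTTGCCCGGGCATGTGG
DDB2: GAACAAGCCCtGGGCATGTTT
FDXR: GGGCGGGCCCgggcaggagcGGGCTTGCCC

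The MDM2 stretch lies at chr12:68808893-68808972 on the plus strand, in an intron of the longer MDM2 transcripts and just before the start used by shorter ones. The FAS pair (chr10:88991309-88991328, plus strand) falls in an exon annotated without a coding part. The AEN pair (chr15:88621306-88621325, plus strand), the DDB2 pair (chr11:47214979-47214999, plus strand) and the FDXR pair (chr17:74872996-74873025, minus strand) fall in annotated UTRs. DDB2 was the only member that matched the consensus with 0 mismatches, as 0.0366% of all genes with a promoter did, and its half-sites are 1 base apart. In FDXR the half-sites are 10 bases apart, the widest of the 5.

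At 120 kPa most p53 targets were higher in siNemp1 than in control cells, but by an amount that differed widely from library to library. Levels are shares of a pool of RNA, so more cells with a transcript and more transcript per cell cannot be told apart. In the fit with 1 mean per group, 30 of the 35 members had a positive log2 change and their median was 0.48, against a median of 0.01 over all tested genes. None of the 35 passed an adjusted p under 0.05 in that fit, where 0% of all genes passed (edgeR quasi-likelihood test, Benjamini-Hochberg), and 10 members and 2413 genes had an unadjusted p under 0.05. Control and siNemp1 libraries of the same number deviated together at 120 kPa, so the replicate number was also fitted as a block. At 10 kPa they hardly did (correlation of 0.0171), and the block over all libraries assumed the same number effect at both stiffnesses. With that block, 9 of 35 members rose and 0 fell, against 6.24% of all genes higher, 2.51% lower and 8.75% in either direction. The 9 were TRIAP1, RRM2B, FBXO22, PMAIP1, RPS27L, FAS, PPM1D, TP53INP1 and SESN1, and their log2 changes ran from 0.36 to 0.88. The median over all 35 was 0.38 with the block, with 29 positive. The block in the 6 libraries at 120 kPa alone also gave 9 rises and 0 falls, against 5.98% of all genes higher, 3.41% lower and 9.39% in either direction. TRIAP1, RRM2B, FBXO22, PMAIP1, RPS27L and PPM1D were called in both fits.

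**Figure D1:**
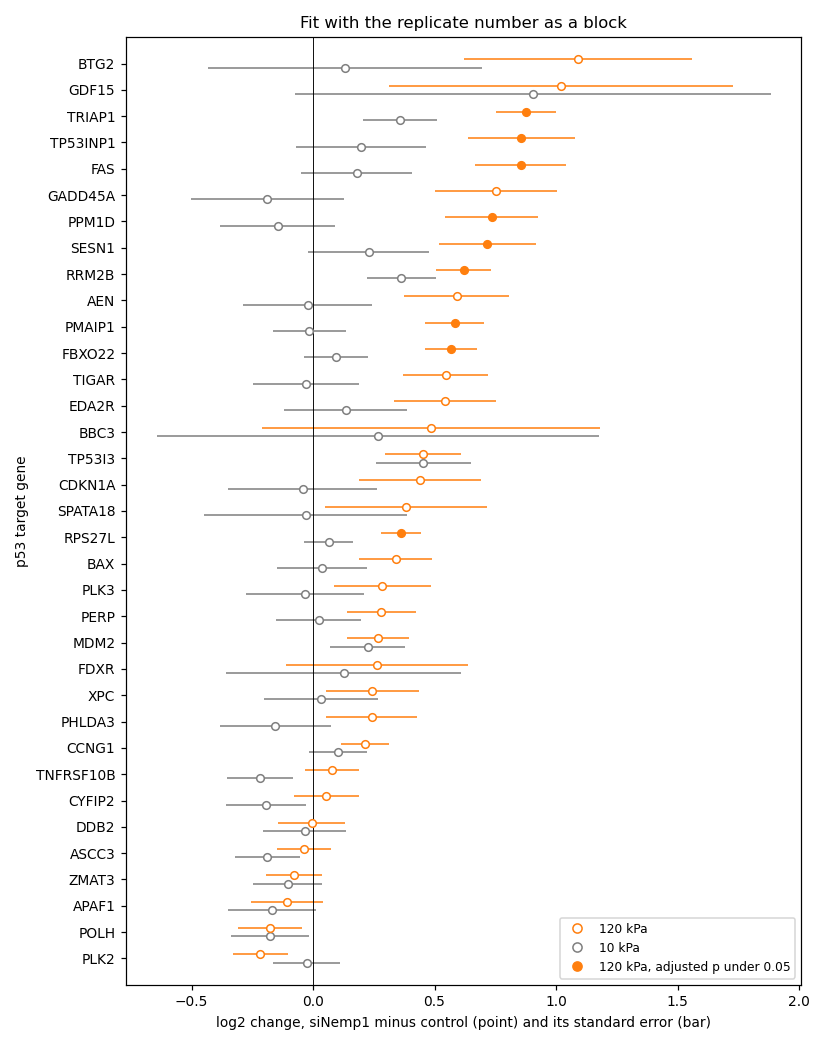
Log2 change in siNemp1 against control cells for the 35 p53 targets at 120 kPa (orange) and 10 kPa (grey), from the blocked fit; bars are the standard error of the fit and filled points had an adjusted p under 0.05. The 9 filled points are all to the right of 0 and all at 120 kPa, and 29 of 35 orange points are positive.

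Among the arrest and feedback genes, 2 of 9 rose at 120 kPa with the block, FBXO22 and PPM1D, and the median log2 change of the 9 was 0.44. FBXO22 is the substrate receptor of a ubiquitin ligase that acts on p53 itself. Its level at 120 kPa was 39.1, 42.6 and 63.3 CPM in control replicates 1, 2 and 3 and 51.2, 62.6 and 106 CPM in siNemp1 replicates 1, 2 and 3. The 10 kPa libraries held 38.9 and 38.9 CPM (control) and 42.6 and 40.4 CPM (siNemp1). Every siNemp1 library was above the control library of its number, but at 120 kPa the groups overlapped because control replicate 3 was above siNemp1 replicates 1 and 2. The log2 change at 120 kPa was 0.57 ± 0.11 (SE, n = 3 pairs; edgeR with block, adjusted p = 0.013). PPM1D encodes WIP1, the phosphatase that switches the p53 response off. It was at 2.67, 2.98 and 5.01 CPM in control and 3.93, 5.38 and 8.56 CPM in siNemp1 cells at 120 kPa, and at 3.54 and 3.94 against 3.4 and 3.33 CPM at 10 kPa. siNemp1 was the higher of each pair at 120 kPa and the lower of each pair at 10 kPa. The blocked log2 change at 120 kPa was 0.73 ± 0.19 (edgeR adjusted p = 0.038).

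CDKN1A, which encodes the p21 inhibitor of cyclin-dependent kinases and is the classical p53 target, varied more between replicates than between treatments. At 120 kPa it was at 260.4, 505 and 839 CPM in control and 325, 659 and 1274 CPM in siNemp1 replicates 1, 2 and 3. At 10 kPa the 4 libraries lay between 320.3 and 367 CPM. Each siNemp1 library at 120 kPa was above its control of the same number, yet siNemp1 replicate 1 was below 2 of the 3 controls. The log2 change was 0.49 ± 0.49 in the fit with 1 mean per group (edgeR adjusted p = 0.66) and 0.44 ± 0.25 with the block (adjusted p = 0.34). With the block and the 6 libraries at 120 kPa alone it was 0.41 ± 0.10, which passed (adjusted p = 0.031).

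MDM2, the ubiquitin ligase that degrades p53, stood at 160.0, 126 and 161 CPM in control and 149, 155 and 246 CPM in siNemp1 cells at 120 kPa. The 10 kPa libraries held 116 and 125 CPM (control) and 144 and 138 CPM (siNemp1). The groups did not overlap at 10 kPa, where 28.8% of all genes were higher in siNemp1 without overlap. At 120 kPa only siNemp1 replicate 3 stood above the controls. Its blocked log2 change at 120 kPa was 0.27 ± 0.13 (edgeR adjusted p = 0.22).

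BTG2, an antiproliferative cofactor of mRNA deadenylation, had the largest difference in a single library among these arrest genes. It was at 10.7, 15.3 and 21.8 CPM in control and 11.3, 25.8 and 102 CPM in siNemp1 cells at 120 kPa, and between 12.2 and 14.6 CPM in the 4 libraries at 10 kPa. The siNemp1 value of 102 CPM was several times any other, and the blocked change of 1.09 ± 0.47 did not pass (edgeR adjusted p = 0.23). GADD45A, a stress sensor that binds PCNA and p21, went from 6.38, 12 and 23.7 CPM in control to 8.95, 16.7 and 55.1 CPM in siNemp1 replicates 1, 2 and 3. Its change was 0.75 ± 0.25 with the block in all libraries (edgeR adjusted p = 0.10) and 0.74 ± 0.17 in the 120 kPa libraries alone, where it passed (adjusted p = 0.032). The polo-like kinase PLK2 was at 498, 593 and 509 CPM in control and 510.2, 522 and 361 CPM in siNemp1 cells, and had a negative blocked change of −0.22 ± 0.11. CCNG1, an atypical cyclin that recruits a phosphatase to MDM2, was at 349, 288 and 294 CPM in control and 405, 331 and 343 CPM in siNemp1 cells at 120 kPa, and at 291 and 297 against 315 and 317 CPM at 10 kPa. It was the higher in siNemp1 in all 5 pairs, by a small amount in each, and its change of 0.21 ± 0.10 did not pass (edgeR with block, adjusted p = 0.20). The kinase PLK3 (0.29 ± 0.20) did not pass either.

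**Figure D2:**
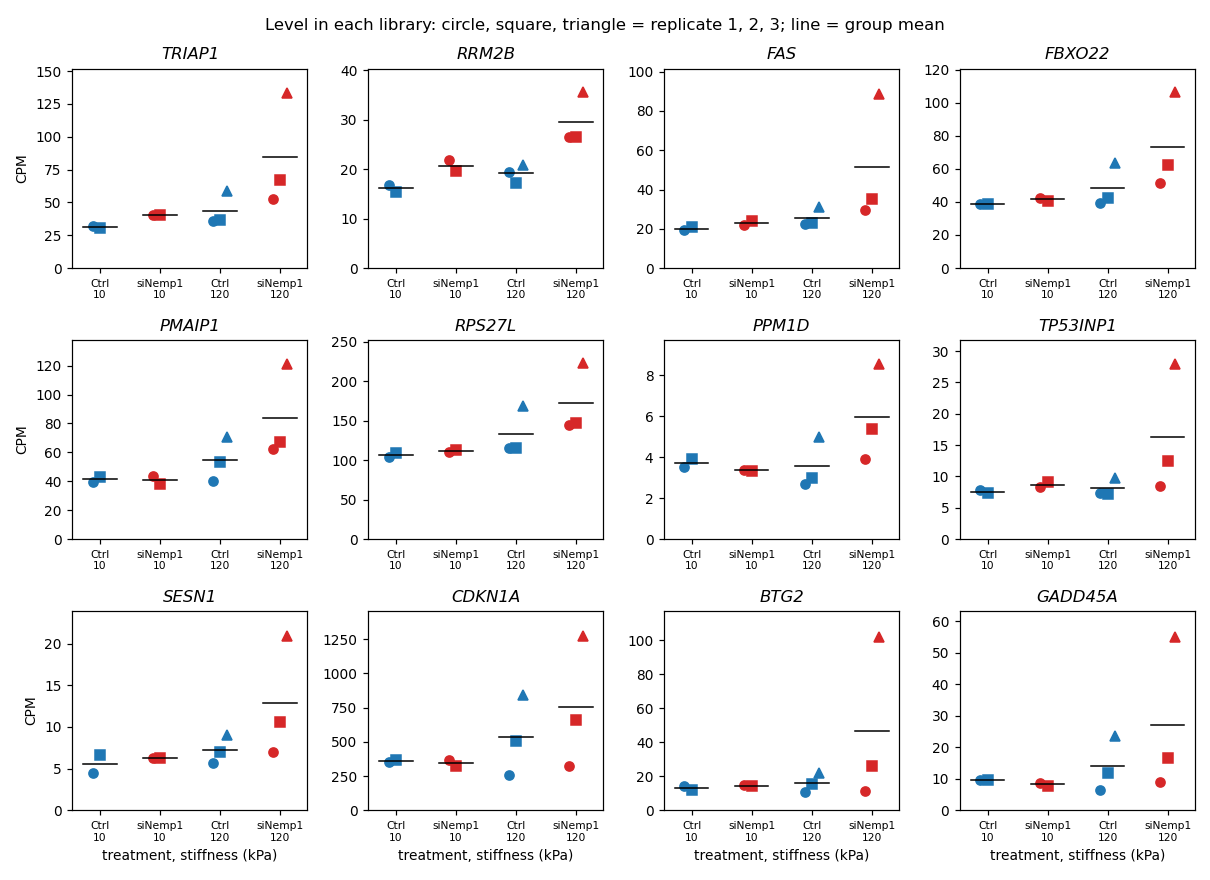
Level in CPM of 12 p53 targets in every library, with control in blue and siNemp1 in red, circle, square and triangle for replicates 1, 2 and 3, and a line at the group mean. In all 12 genes the red triangle, siNemp1 replicate 3 at 120 kPa, is the highest of the 10 libraries.

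The cell death genes held 3 of the 9 rises, TRIAP1, PMAIP1 and FAS, out of 12 members with a median blocked change of 0.41. TRIAP1 encodes a small mitochondrial protein that carries phosphatidic acid and restrains apoptosis, so it is a survival gene among p53 targets. Its level was 36.1, 36.3 and 58.9 CPM in control and 52.9, 66.8 and 133 CPM in siNemp1 cells at 120 kPa, and 32.0 and 30.6 against 40.0 and 40.2 CPM at 10 kPa. siNemp1 was higher in all 5 pairs, and the groups overlapped at 120 kPa through control replicate 3 alone. The log2 change at 120 kPa was 0.88 ± 0.12 (edgeR with block, adjusted p = 0.0061) and 0.94 ± 0.31 without the block (adjusted p = 0.16). TRIAP1 was called in 8 of 24 settings tried for this comparison, the most of any member, with changes from 0.42 to 1.2.

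PMAIP1 encodes NOXA, a BH3-only protein that neutralises MCL1. It was at 40.0, 53 and 70.7 CPM in control and 62.0, 67.3 and 121 CPM in siNemp1 cells at 120 kPa, and between 37.9 and 43.5 CPM at 10 kPa. It was higher in siNemp1 in each pair at 120 kPa, with control replicate 3 above siNemp1 replicates 1 and 2. The blocked change was 0.58 ± 0.12 (edgeR adjusted p = 0.017). FAS, the death receptor for FAS ligand, was at 22.6, 22.8 and 31.0 CPM in control and 29.7, 35 and 88.9 CPM in siNemp1 cells at 120 kPa, and at 19.2 and 21 against 21.7 and 23.8 CPM at 10 kPa. siNemp1 was the higher of all 5 pairs, and 1 siNemp1 library at 120 kPa fell below the highest control. The blocked change was 0.85 ± 0.19 (edgeR adjusted p = 0.025). FAS shares exon sequence with ACTA2 on the other strand, and no source used here gives the strandedness of the libraries, so reads of the shared part cannot be told apart. Some overlap with exons of another gene was found for 15 of the 35 members, FAS, CDKN1A, MDM2, FBXO22, SESN1 and TP53I3 among them. In most the other gene lies on the other strand, as for FAS. PHLDA3 overlaps a gene on its own strand, as BBC3, MDM2 and TIGAR do in part, and there strandedness would not part the reads.

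The pore-forming protein BAX was at 43.5, 63.5 and 80.9 CPM in control and 51.3, 73.1 and 120.3 CPM in siNemp1 cells at 120 kPa. It was higher in siNemp1 in each pair, and its change of 0.34 ± 0.15 did not pass (edgeR with block, adjusted p = 0.19). BBC3, which encodes PUMA, was barely expressed, at 0.272, 0.275 and 0.548 CPM in control and 0.0492, 0.489 and 1.25 CPM in siNemp1 cells at 120 kPa, and at 0.202 to 0.377 CPM at 10 kPa. Its 120 kPa pairs differed in sign. The nuclease AEN, at 22.3, 35.8 and 66.0 CPM in control and 27.3, 50.9 and 124 CPM in siNemp1 cells, had a change of 0.59 ± 0.22 in all libraries (edgeR adjusted p = 0.13) and passed in the 120 kPa libraries alone (0.56 ± 0.14, adjusted p = 0.035). EDA2R, a receptor of the TNF family, was at 30.3, 25.0 and 30.8 CPM in control and 29.4, 33.5 and 72.7 CPM in siNemp1 cells. Only siNemp1 replicate 3 stood far from the rest, and the change of 0.54 ± 0.21 did not pass (adjusted p = 0.15). PERP, a tetraspan protein of desmosomes and apoptosis, was at 68.3, 100.2 and 92.9 CPM in control and 99.6, 113 and 104 CPM in siNemp1 cells at 120 kPa, higher in each pair but with groups that overlapped by a narrow margin. PERP, PHLDA3, TNFRSF10B, CYFIP2 and APAF1 had changes between −0.11 and 0.28, none of which passed. APAF1, the scaffold of the apoptosome, was the only member that was lower in siNemp1 in all 3 pairs at 120 kPa and in all 5 pairs.

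Of the DNA repair and nucleotide supply genes, RRM2B rose and the other 4 did not pass. RRM2B is the p53-induced small subunit of ribonucleotide reductase, which makes deoxynucleotides outside S phase and for mitochondria. At 120 kPa it was at 19.4, 17.3 and 20.8 CPM in control and 26.5, 26.6 and 35.7 CPM in siNemp1 cells, and at 10 kPa at 16.9 and 15.4 against 21.9 and 19.6 CPM. The control and siNemp1 libraries did not overlap at either stiffness, and at 10 kPa 28.8% of all genes were likewise higher without overlap. At 120 kPa it was the only member of 35 whose groups did not overlap, where 10.9% of all genes were higher without overlap and 6.97% lower. Its log2 change at 120 kPa was 0.62 ± 0.11 (edgeR with block, adjusted p = 0.012) and 0.63 ± 0.15 without the block (adjusted p = 0.083). XPC and DDB2, damage sensors of nucleotide excision repair, had blocked changes of 0.24 ± 0.19 and −0.01 ± 0.14. The translesion polymerase POLH had −0.18 ± 0.13 and the helicase ASCC3 −0.04 ± 0.11. DDB2, the gene with the full consensus site shown above, ran from 25.3 to 36.2 CPM over the 6 libraries at 120 kPa.

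Of the 7 metabolic, redox and secreted members in the table, TP53INP1 and SESN1 rose with the block at 120 kPa, all 7 had positive changes and their median was 0.55. TP53INP1, a stress protein of autophagy, was at 7.38, 7.16 and 9.81 CPM in control and 8.41, 12.4 and 27.9 CPM in siNemp1 cells (blocked change 0.86 ± 0.22, edgeR adjusted p = 0.038). SESN1, a sestrin that restrains mTORC1, was at 5.70, 7.05 and 9.06 CPM in control and 7.03, 10.6 and 20.9 CPM in siNemp1 cells (0.72 ± 0.20, adjusted p = 0.047). Both were higher in siNemp1 in each pair, with control replicate 3 above siNemp1 replicate 1. TP53I3, an oxidoreductase linked to reactive oxygen species, was at 11.3, 16 and 26.3 CPM in control and 15.2, 20.3 and 39.1 CPM in siNemp1 cells at 120 kPa, and at 12 and 12.2 against 17.9 and 15.0 CPM at 10 kPa. It was higher in siNemp1 in all 5 pairs, and at 120 kPa its change of 0.45 ± 0.16 missed the threshold (edgeR with block, adjusted p = 0.098). The glycolytic regulator TIGAR was at 11.9, 7.82 and 16.9 CPM in control and 12.2, 11.7 and 33.9 CPM in siNemp1 cells at 120 kPa, and at 8.43 to 10.0 CPM at 10 kPa. Its first pair at 120 kPa was nearly level and the other two were apart, with a change of 0.55 ± 0.17 (edgeR with block, adjusted p = 0.078). On the mitochondrial side, the reductase FDXR and SPATA18, a factor of mitochondrial quality control, had 0.26 ± 0.37 and 0.38 ± 0.33. GDF15, a secreted stress cytokine of the TGF-beta family, was hardly detected. It was at 0.181, 0.551 and 0.463 CPM in control and 0.344, 0.244 and 2.81 CPM in siNemp1 cells at 120 kPa, and at 0.0920 to 0.335 CPM at 10 kPa. A single siNemp1 library stood above the rest, and the change of 1.02 ± 0.71 did not pass.

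RPS27L, a ribosomal protein paralogue that binds MDM2, was at 115, 116 and 169 CPM in control and 145, 147 and 224 CPM in siNemp1 cells at 120 kPa. It was higher in siNemp1 in each pair and rose by 0.36 ± 0.08 on the log2 scale (edgeR with block, adjusted p = 0.023). RPS27L is a close copy of RPS27, so how the quantification divided reads between them could affect its count. ZMAT3, an RNA-binding regulator of splicing, was at 51.6, 56.5 and 84.2 CPM in control and 50.6, 63.0 and 65.4 CPM in siNemp1 cells, with a change of −0.08 ± 0.11. Its pairs differed in sign, and control replicate 3 was its highest library.

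Pairing by number gave a graded picture of the 35 targets. siNemp1 was the higher library for 23, 26 and 32 of 35 members in the pairs numbered 1, 2 and 3 at 120 kPa, with median log2 differences of 0.22, 0.30 and 0.69. Over all tested genes, siNemp1 was higher for 54.2%, 49.4% and 50.1%. In all 3 pairs 20 members were higher and 1 was lower, against 25.1% and 21.9% of all genes. In the pairs at 10 kPa siNemp1 was higher for 22 and 15 members, with medians of 0.08 and −0.07, and for 51.7% and 48.1% of all genes. All 5 pairs were higher for 9 members (BTG2, CCNG1, FAS, FBXO22, RPS27L, RRM2B, TP53I3, TP53INP1 and TRIAP1) and lower for 1, against 17.3% and 13.9% of all genes.

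**Figure D3:**
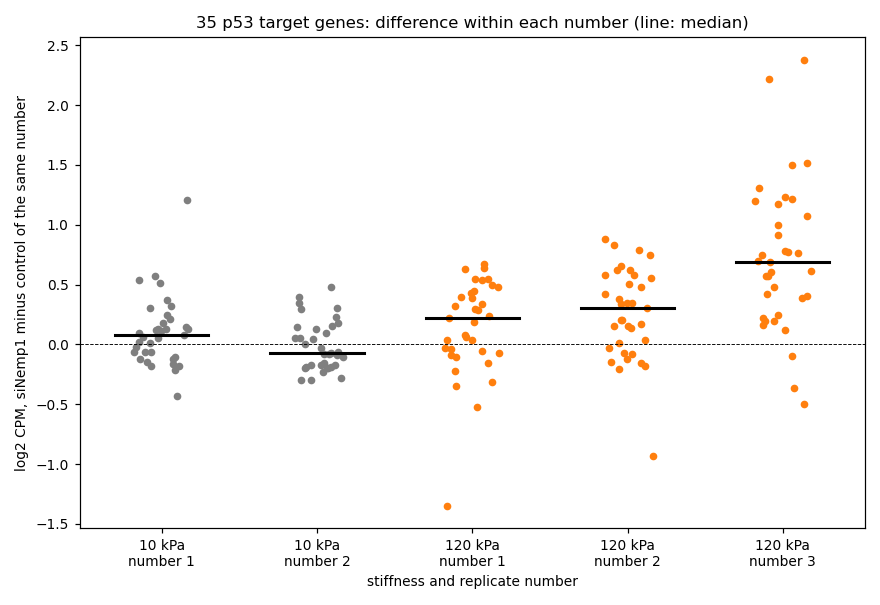
Difference in log2 CPM between the siNemp1 and control library of each number, 1 point for each of the 35 p53 targets and a line at their median, grey at 10 kPa and orange at 120 kPa. The medians are 0.08 and −0.07 at 10 kPa and 0.22, 0.30 and 0.69 at 120 kPa.

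A single library carried much of the size of the difference. siNemp1 replicate 3 at 120 kPa was the highest of all 10 libraries for 28 of 35 members, against 21% of all tested genes. Relative to the control mean at 10 kPa, the median log2 level of the members was 1.18 in that library and 0.39 and −0.05 in siNemp1 replicates 2 and 1. In the controls at 120 kPa it was 0.54, 0.13 and −0.03 for replicates 3, 2 and 1. Within each group at 120 kPa, the library numbered 3 was the highest of 3 for 26 members in control and 31 in siNemp1 cells, against 37.9% and 38.0% of all genes. The members differed between libraries 3 and 1 by a median of 0.56 in control and 1.19 in siNemp1 cells on the log2 scale.

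Without siNemp1 replicate 3 the median change at 120 kPa in the fit with 1 mean per group was −0.07, with 13 of 35 positive, and the blocked fit without it, with a median of 0.24, called 1 member, TRIAP1, among 735 of 13884 genes. Leaving out both libraries numbered 3 left a blocked median of 0.25, with 24 of 33 tested members positive, and again TRIAP1 alone was called, while 3.84% of all genes were higher, 1.65% lower and 5.49% called in either direction. Leaving out the pair numbered 2 left 0 members and 2 genes called. Leaving out the pair numbered 1 left 18 members called, of which 17 were higher, among 1552 of 13860 genes. The number of calls thus depended on each of the 3 pairs.

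**Figure D4:**
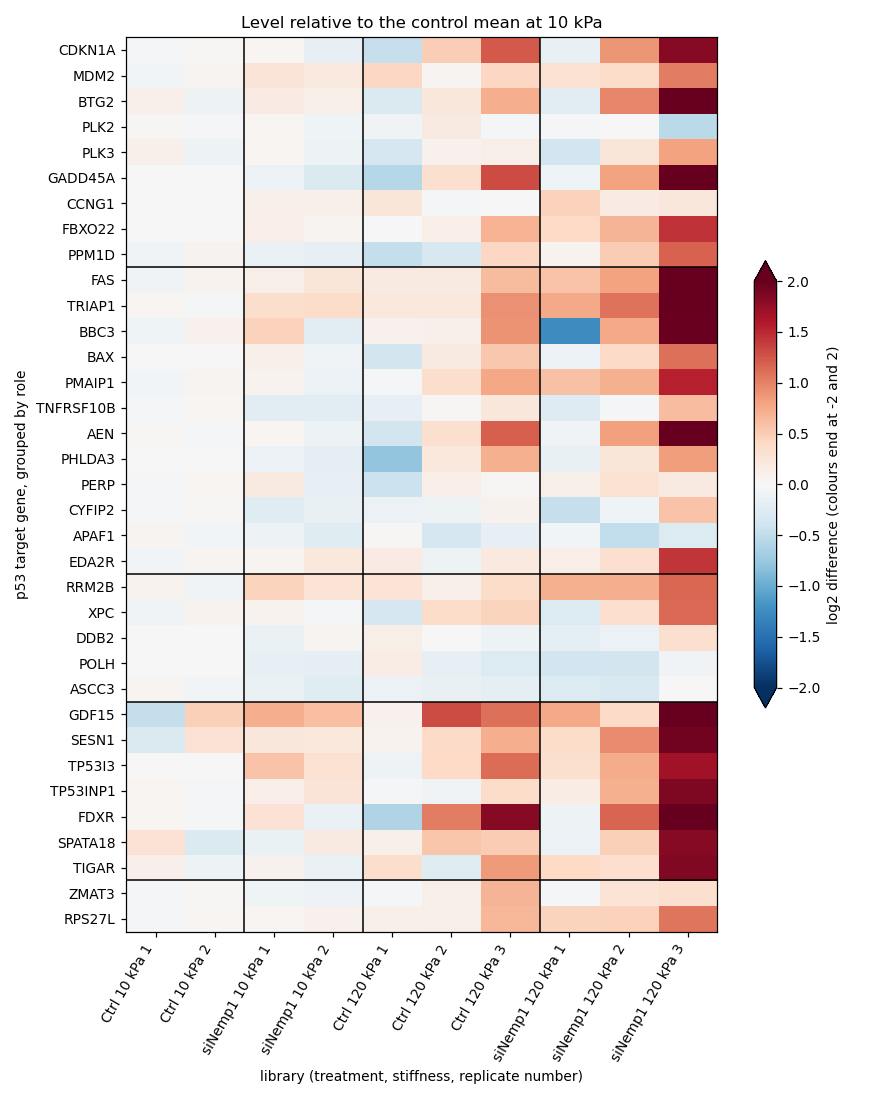
Level of each p53 target in each of the 10 libraries as the log2 difference from the control mean at 10 kPa, with red above and blue below and colours ending at a difference of 2 either way; genes are grouped by role and vertical lines part the 4 groups. The column of siNemp1 replicate 3 at 120 kPa is the reddest, followed by control replicate 3 and siNemp1 replicate 2, with medians of 1.18, 0.54 and 0.39.

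**Figure D5:**
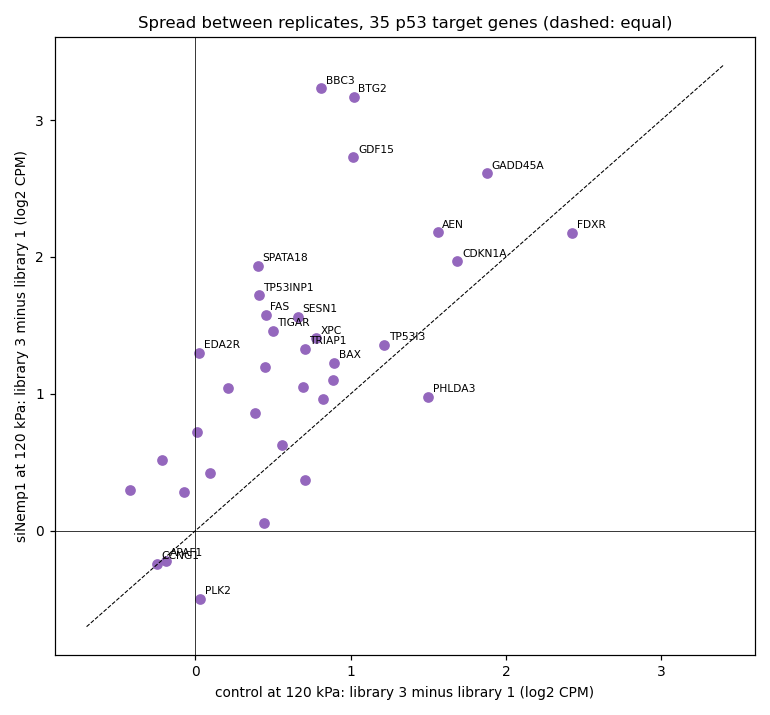
For each of the 35 targets, the log2 CPM difference between replicates 3 and 1 at 120 kPa in control (x axis) and siNemp1 cells (y axis), with a dashed line where both are equal. Most points are to the right of 0 and above the dashed line, with medians of 0.56 in control and 1.19 in siNemp1 cells.

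Other measures also changed with the library number at 120 kPa, some falling and some rising. The mitochondrial share of counts was 1.73%, 1.40% and 0.913% in control replicates 1, 2 and 3 at 120 kPa and 1.06%, 0.826% and 0.709% in siNemp1 replicates 1, 2 and 3, compared with 1.48% to 1.60% at 10 kPa. The residual ribosomal RNA share was 0.394%, 0.304% and 0.229% in these controls and 0.255%, 0.237% and 0.164% in siNemp1. Mitochondrial ribosomal RNA was counted in both shares, so they are not separate measures. Within each group at 120 kPa, ASNS and DDIT3, targets of ATF4 in the integrated stress response, were highest in the library numbered 3, as were most p53 targets. Not every such ATF4 target was: SLC7A11 stood at 55.4, 56.0 and 53.8 CPM in siNemp1 replicates 1, 2 and 3. ASNS, an amino acid synthetase, was at 20.1, 38.1 and 81.3 CPM in control and 26.5, 56.4 and 146 CPM in siNemp1 cells, and DDIT3, which encodes CHOP, at 49.4, 81.0 and 143 against 62.3, 90.2 and 236 CPM. Of 14 targets of ATF4 and CHOP, 1 rose with the block at 120 kPa (MTHFD2, a mitochondrial folate enzyme, 0.41 ± 0.12, edgeR adjusted p = 0.049), 0 fell and their median change was 0.41, where 6.24% of all genes rose and 2.51% fell. The part of these measures in the p53 target values was not tested.

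At 10 kPa no p53 target was called, either without or with the block (edgeR adjusted p under 0.05 for 0% and 0.0286% of all genes), and 18 of 35 changes were positive with a median of 0.02. Unadjusted p was under 0.05 for 0 members without and 3 with the block, against 850 and 1426 of 13990 genes. The 4 libraries at 10 kPa fitted alone, whose replicates lay close together, called 6 of 33 members against 17.3% of all genes, with 8.1% higher and 9.19% lower. These 6 calls are near that share of all genes and so are not particular to p53 targets. In that fit TRIAP1 (0.34, edgeR adjusted p = 0.0054), MDM2 (0.21, adjusted p = 0.015), TP53I3 (0.44, adjusted p = 0.023) and RRM2B (0.35, adjusted p = 0.040) rose. TNFRSF10B, a death receptor for TRAIL (−0.23, adjusted p = 0.012), and CYFIP2, a WAVE complex subunit (−0.21, adjusted p = 0.034), fell. The groups did not overlap for 12 members that were higher in siNemp1 and 9 that were lower, where 28.8% and 28.5% of all genes did so.

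Averaged over both stiffnesses, 0 of 35 members were called without the block, where 1.29% of all genes were, and RRM2B came nearest (0.50 ± 0.12, edgeR adjusted p = 0.068). With the block 4 rose and 0 fell, against 6.58% and 4.17% of all genes and 10.8% in either direction. The 4 were TRIAP1 (0.62 ± 0.10, edgeR adjusted p = 0.0081), RRM2B (0.49 ± 0.09, adjusted p = 0.012), FBXO22 (0.33 ± 0.08, adjusted p = 0.033) and TP53I3 (0.45 ± 0.13, adjusted p = 0.042). The median over the 35 was 0.26 without and 0.21 with the block.

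Whether the siNemp1 effect differed between stiffnesses was tested directly as an interaction. No member was called without or with the block, where 0.00715% and 0.0286% of all genes were. Every member's edgeR adjusted p was 1.0 after rounding. Unadjusted p was under 0.05 for 0 and 7 members, against 235 and 488 of 13990 genes. The differences leaned one way, with 33 of 35 positive without the block and a median of 0.36, meaning a larger siNemp1 value at 120 kPa. PPM1D had the smallest unadjusted p without the block, where no member was under 0.05. With the block its difference was 0.88 ± 0.30 (unadjusted p = 0.014 in edgeR) and that of PMAIP1 was 0.60 ± 0.19 (unadjusted p = 0.0098). Without siNemp1 replicate 3 at 120 kPa the median difference was −0.02.

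Between the substrates, no p53 target was called in either treatment. In control cells 28 of 35 were higher at 120 than at 10 kPa with a median of 0.28, and 0 were called where 0.0143% of all genes were. Unadjusted p was under 0.05 for 0 members, against 569 of 13990 genes. With the block, in which the libraries numbered 3 have no partner at 10 kPa, the median was −0.05 with 15 positive and 0 called, against 0.0214% of all genes. The groups did not overlap for 7 members higher at 120 kPa (BBC3, FAS, FBXO22, MDM2, RPS27L, RRM2B and TRIAP1) and 1 lower (ASCC3), against 10.3% and 11.9% of all genes. BBC3 was near the floor, with estimated counts of 5 and 5 at 10 kPa against 6, 5 and 13 at 120 kPa, before scaling. In siNemp1 cells 32 of 35 were higher at 120 kPa with a median of 0.61, or 0.28 with the block. Of all genes 0% were called, or 0.0143% with the block. Unadjusted p was under 0.05 for 9 members in each fit, against 1655 genes without and 1543 with the block, of 13990. PMAIP1 came nearest, with a log2 change of 1.04 ± 0.30 (edgeR adjusted p = 0.32) and 0.71 ± 0.14 with the block (adjusted p = 0.11), and it passed in DESeq2 (1.01, adjusted p = 0.037). Without overlap, 13 members were higher at 120 kPa and 0 lower, against 18.2% and 15.5% of all genes. These comparisons share the siNemp1 and control libraries of the knockdown comparisons and are not independent of them.

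Upstream of the targets, MDM4, the partner of MDM2 in holding p53 back, was between 34.0 and 41.0 CPM in control and between 27.1 and 30.9 CPM in siNemp1 cells at 120 kPa, and at 38.2 and 42.5 against 31.2 and 34.0 CPM at 10 kPa. The groups did not overlap at either stiffness, where 28.5% of all genes were lower without overlap at 10 kPa and 6.97% at 120 kPa. Its change averaged over stiffness was −0.31 ± 0.09, which passed with the block (edgeR adjusted p = 0.048) and not without it (adjusted p = 0.099). Of 23 tested regulators of p53, 1 rose and 2 fell at 120 kPa with the block, against 6.24% of all genes higher and 2.51% lower. RCHY1, a ubiquitin ligase for p53 also known as PIRH2, rose by 0.68 ± 0.12 (edgeR adjusted p = 0.0097). The damage kinases ATM (−0.42 ± 0.11, adjusted p = 0.034) and ATR (−0.51 ± 0.14, adjusted p = 0.040) fell. The median over the 23 was −0.18.

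Downstream and beside them, 4 of 42 further p53 targets rose and 0 fell, against the same 6.24% and 2.51% of all genes, with a median of 0.11 and 32 positive. They were TNFRSF10D, a decoy receptor for TRAIL (0.73 ± 0.14, edgeR with block, adjusted p = 0.014), the phosphatase PTP4A1 (0.43 ± 0.09, adjusted p = 0.021), the calcium channel subunit ORAI3 (0.35 ± 0.09, adjusted p = 0.042) and the noncoding RNA TP53TG1 (0.50 ± 0.14, adjusted p = 0.0497). Of 23 cell cycle genes that p53 lowers through p21 and the DREAM repressor complex, 4 fell and 0 rose, against 2.51% and 6.24% of all genes, with a median of −0.19 and 10 positive. The mitotic genes CENPF (−0.61 ± 0.10, edgeR with block, adjusted p = 0.0085), MKI67 (−0.84 ± 0.16, adjusted p = 0.016), KIF23 (−0.95 ± 0.19, adjusted p = 0.023) and the transcription factor FOXM1 (−0.47 ± 0.11, adjusted p = 0.027) were the 4. At 10 kPa these 4, picked by their fall at 120 kPa, were lower in siNemp1 without overlap, where 28.5% of all genes were. MKI67 was at 67.2 and 67.4 against 104 and 102 CPM in control, and CENPF at 69.2 and 65.7 against 106 and 97.2 CPM. KIF23 was at 44.5 and 48.6 against 66.7 and 68.1 CPM and FOXM1 at 45.9 and 43.5 against 64.1 and 60.9 CPM. None of the 23 passed at 10 kPa, with an adjusted p of at least 0.22 in edgeR with the block. Without the block none of the genes of these lists was called at 120 kPa.

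Among cell type markers at 120 kPa with the block, 0 of 4 tested genes of retinal pigment epithelium and 0 of 3 of epithelium were called, with medians of −0.10 and −0.15. Of 5 fibroblast genes THY1 fell (−0.73 ± 0.15, edgeR adjusted p = 0.020) and the median was −0.33. Of 3 immune and endothelial genes CD68 fell (−0.46 ± 0.11, adjusted p = 0.025) and the median was −0.14. THY1 and CD68 were both lowest of the 10 libraries in siNemp1 replicate 3 at 120 kPa, where most p53 targets were highest. The part of this in the target values was not tested.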

How the data were processed

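The authors deposited a table of expected counts, the estimated number of reads of each gene. The submitters' processing notes list FastQC 0.11.9, Trimmomatic 0.33, Salmon 1.80 and edgeR, with GRCh38 as the build. Per the labels' protocols, ribosomal RNA was depleted with RNase H and cDNA was primed with random hexamers. No source used here gives the annotation or the strandedness. Estimated counts of 10 libraries (totals of 17.9 to 23.8 M) were rounded, filtered with filterByExpr over the 4 groups and scaled with TMM. One quasi-likelihood model with 1 mean per group (6 residual degrees of freedom) was fitted in edgeR 4.0.16 (limma 3.58.1, R 4.3.3). Tests were two-sided, with Benjamini-Hochberg adjustment over all 13990 genes and 0.05 as the threshold. A ± after a log2 change is its standard error. Log2 CPM for pairs and library medians used a prior count of 2.

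Whether numbers pair libraries was checked by how far a control and a siNemp1 library of 1 number departed together from the mean of their group: the correlation across genes was 0.426, 0.157 and 0.359 at 120 kPa and 0.0171 at 10 kPa. Every pair at 120 kPa exceeded 0.1, so a fit that adds the number as a block (4 residual degrees of freedom, 2 in the 120 kPa libraries alone) stands beside the results it alters. No source used here says what a number stands for.

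Alternatives were the block, the compared groups alone, DESeq2 1.42.0, other scalings, no filter, at least 5 CPM in at least 2 libraries, and libraries or pairs left out. The fit with 1 mean per group and the fit with the block in all libraries were first tested on simulated counts, for the 120 kPa comparison only. The simulated counts held no difference between replicate numbers, unlike these libraries. The other fits were not tested in this way. The members, lists and tests were chosen with earlier results of these data known. Libraries are given singly for members called in either fit, for 8 fixed members and for up to 6 with the next smallest p at 120 kPa. AEN and PLK2 among others lie outside that rule and were given singly after their values were seen. A gene that the rule also takes is not reported here. Gene overlaps came from GENCODE 29 on GRCh38. A search for p53 sites over a wider window was planned but not run, because no genome sequence was used here; the 300-base RefSeq promoters were searched instead, and the limit of 2 mismatches was chosen after the matches were seen.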

Additional observations from a re-analysis of the deposited data

How the results depend on the processing

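The count of p53 targets called in siNemp1 against control cells at 120 kPa depended on the model. It was 0 with 1 mean per group and 9 with the replicate block. The block in the 120 kPa libraries alone gave 9, and 6 members were called in both blocked fits. DESeq2 gave 3 (FAS, RRM2B and TRIAP1), with 642 of 23537 genes called. No filter on low counts gave 11, with 643 of 23547 genes called. With the replicate block and a pair left out the count ran from 0 (2 of 13879 genes called) to 18 without replicate 1 (1552 of 13860 genes). After seeing the data, the block was also fitted without siNemp1 replicate 3 at 120 kPa (1 called, among 735 of 13884 genes). With upper-quartile scaling, also added then, it called 7, among 1215 of 13990 genes. The median log2 change of the members, 0.48, ran from −0.069 without siNemp1 replicate 3 to 0.68 without siNemp1 replicate 1 when single libraries were left out.

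At 10 kPa the groups compared alone gave 6 called members, and the median ran from −0.080 to 0.059 over left-out libraries. For stiffness in control cells, no filter gave 1 (FDXR), the block gave a median of −0.052, and left-out libraries 0.056 to 0.42. For stiffness in siNemp1 cells, DESeq2 gave 1 and no filter 13, with medians of 0.19 to 0.84. The difference between the siNemp1 effects had 1 call with no filter (BTG2) and medians of −0.02 to 0.59. Averaged over stiffness, the replicate block gave 4, DESeq2 1 (RRM2B), no filter 5, and left-out libraries 0 to 1 with medians of −0.03 to 0.40. Blocked fits added after seeing the data gave 2 to 12 with a pair left out and 3 with upper-quartile scaling. Each left-out fit had fewer libraries, and the cause of these differences was not tested. No share over all genes stands beside these counts here, so none is read as a result about the members. The 9 members called with the block kept a positive change at 120 kPa in every setting tried. They were picked by their rise in these same libraries, which every setting reused, so their sign is no independent support. Of the members called higher only in other fits, 7 did not keep a positive change. Without siNemp1 replicate 3 and without the block, CDKN1A (−0.14), GADD45A (−0.15), AEN (−0.10), TIGAR (−0.069), BAX (−0.037), TP53I3 (−0.037) and MDM2 (−0.0054) were negative at 120 kPa. PLK2 was called lower in 1 setting and was negative in every setting, from −0.35 to −0.079. The block changed no other call of a member. Groups of 2 and 3 libraries limit what can be shown at these depths, mainly at 120 kPa.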
